A study of Mus musculus with 10 samples.

Results

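The basal cells of the straight sweat duct were set against the epidermis of the palm and sole, the tissue into which the duct opens. The comparison used 4 of the 10 arrays of the series, those titled as basal sweat duct (2 arrays) and as palmoplantar epidermis (2 arrays). The mice were wild-type CD1 females, and all cells were purified from their paw pads by fluorescence-activated cell sorting and had received no treatment that the labels name. The other 6 arrays hold suprabasal duct cells, myoepithelial cells and luminal cells of the same source, 2 of each, and entered the statistical model without being compared here. The labels present each pair of arrays as biological replicates and do not give the sorting markers, the ages, the number of animals behind an array or the layers of the epidermis that were collected, so that a basal layer is set against epidermal cells of unstated depth.

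The eccrine sweat gland secretes a salty fluid in its coil, and the duct takes salt back from it on the way to the surface. It uses sodium channels of the membrane that faces the lumen and the sodium pump of the membrane that faces the tissue. The duct has a basal and a suprabasal layer of keratinocytes and is continuous with the epidermis. Basal keratinocytes divide and are held to the basement membrane by hemidesmosomes, whereas suprabasal keratinocytes stop dividing, change their keratins and build the cornified envelope and the lipid layer that keep water in.

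Markers of basal and of differentiating keratinocytes separated the 2 samples only in part. Krt5, a keratin of basal keratinocytes, had a signal of 24116 and 26013 in duct basal cells, against 6769.7 and 11347 in epidermis, with groups that did not overlap (log2 difference 1.51, SE 0.51, adjusted p = 0.0466). Krt5 passed by a narrow margin: its adjusted p was 0.0763 to 0.254 without any single one of the 4 arrays, 0.0541 after quantile normalization and 0.135 with arrays centred on their median. Krt14, its partner, had 35992 and 33738 in duct basal cells, against 19873 and 24072 in epidermis, and Trp63, the master transcription factor of stratified epithelium, had 3631 and 3004 in duct basal cells, against 2169.6 and 2534 in epidermis; neither passed the test, although Krt14 did as the mean of its probe sets (1.59). Krt10, the keratin of differentiating epidermis, had 2499 and 10255 in duct basal cells, against 40255 and 41859.7 in epidermis, so it was brighter in epidermis but was also present, unequally, on both duct basal arrays. The involucrin gene Ivl was below the filter for testing, at 4.8 and 3.7 in duct basal cells, against 58.1 and 33.5 in epidermis.

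Over the 9320 genes tested, the correlation of log2 signals was 0.963 between the duct basal arrays and 0.981 between the epidermis arrays, and 0.829 to 0.86 between arrays of the 2 populations. Genes are not independent replicates, and these correlations are descriptions. The duct basal arrays differed more than 2-fold from each other in 830 genes and the epidermis arrays in 505. Probe sets had median signals of 102.5 and 92.9 on the duct basal arrays, against 65.7 and 67.3 on the epidermis arrays, and the 8 arrays other than epidermis ranged between 92.7 and 120.1.

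Of 9320 genes, 3168 differed between duct basal cells and epidermis at an adjusted p under 0.05 (34.0%). Of these, 2145 were higher in duct basal cells (23.0%) and 1023 were lower (11.0%). Counts of list members given below stand beside these shares of all genes. In 6656 genes (71.4%) the 2 duct basal arrays did not overlap the 2 epidermis arrays. At least 2-fold differences were called in 1754 genes that were higher and 638 that were lower, and at least 8-fold differences in 280 and 87. The share of calls that were higher, 67.7%, depended on the scaling of the arrays: it was 51.7% after quantile normalization and 41.1% after each array was centred on its median. These scalings put the median log2 difference of all genes tested at -0.05 and -0.17, against 0.24 on the deposited scale, so a list's median is given here beside that 0.24. Log2 differences are duct basal minus epidermis on the scale of log2(signal + 12), which understates the change of genes with a low signal. Precision throughout is limited by there being 2 arrays per population.

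**Figure D1:**
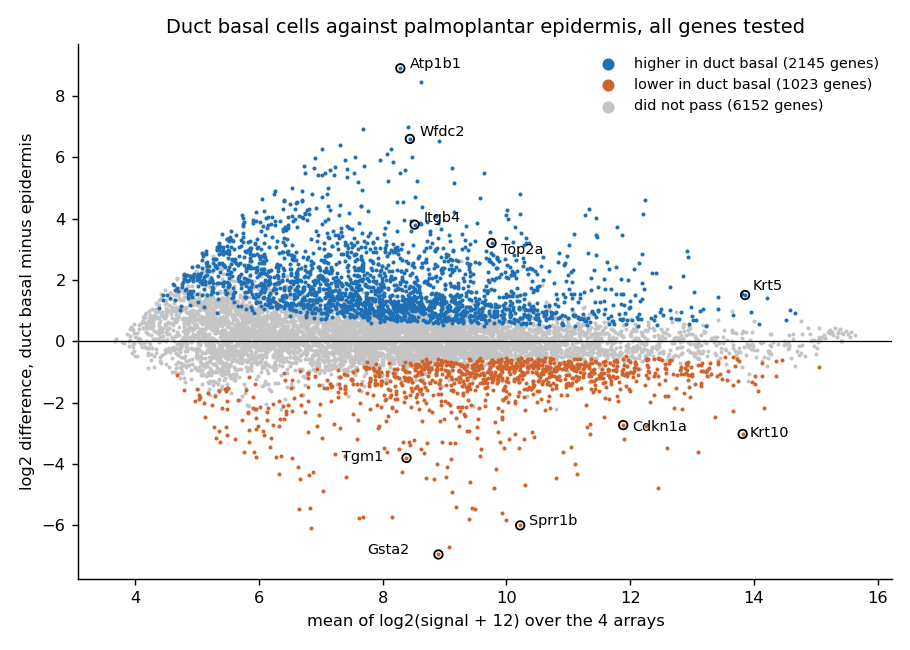
Log2 difference (duct basal minus epidermis, y axis) of each of 9320 genes against its mean log2(signal + 12) over the 4 arrays (x axis). Blue points are the 2145 genes called higher in duct basal cells, orange points the 1023 called lower and grey points the rest; 10 genes are named, from Atp1b1 at the top to Gsta2 at the bottom.

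The largest difference of all was in Atp1b1, the beta 1 subunit of the sodium pump. Its signal was 9215 and 5051 in duct basal cells, against 3.5 and 1.1 in epidermis. The duct basal arrays were bright and both epidermis arrays were at the bottom of the scale (log2 difference 8.91, SE 0.76, adjusted p = 7.35e-05). Fxyd2, a small regulatory subunit of the same pump, followed the same pattern with 10563 and 5088 in duct basal cells, against 5.5 and 13.1 in epidermis (8.45, SE 0.70). Atp1b3, another beta subunit, had 10487 and 10661 in duct basal cells, against 6432 and 6546 in epidermis, a small difference that passed the test (0.70), and Fxyd3 had 24224 and 28611 in duct basal cells, against 23084 and 21929.9 in epidermis and did not (0.23). Fold sizes thus ranged widely within the sodium pump family. The call of Atp1b3 was lost with arrays centred on their median (adjusted p = 0.274), and its adjusted p was 0.0591 to 0.068 without epidermis array 1 or epidermis array 2.

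Among 34 tested genes of ion and water transport, 15 were higher in duct basal cells, 2 were lower and 17 did not pass, with a median log2 difference of 1.16. The share called was 50%, against 34.0% of all genes. Kcnn4, a calcium-activated potassium channel, had 1226 and 517 in duct basal cells, against 5.5 and 8.4 in epidermis (5.42). Atp6v1b1, a subunit of the proton pump of acid-secreting cells, had 691 and 614 in duct basal cells, against 4.4 and 26.9 in epidermis (4.72). Foxi1, the transcription factor that drives such proton-secreting cells, had 279.7 and 138 in duct basal cells, against 2.9 and 1.4 in epidermis (3.89). All 3 genes were separated widely between the 2 populations compared, with epidermis near the bottom of the scale. Kcnn4 and Atp6v1b1 were brighter still outside the duct basal layer. In luminal cells Kcnn4 had 11892 and 14278, and Atp6v1b1 had 10260 and 12450. In suprabasal duct Kcnn4 had 6893 and 2082, and Atp6v1b1 had 4078 and 1867. The adjusted p of Foxi1 was 0.0507 to 0.0667 without duct basal array 1 or epidermis array 2.

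Car12, a carbonic anhydrase of the cell surface that is mutated in a human disorder of salt loss in sweat, had 3563 and 2777 in duct basal cells, against 427 and 523 in epidermis (2.71), whereas the cytosolic Car13 was lower at 204 and 269 in duct basal cells, against 2091 and 2294 in epidermis (-3.16). Slc12a2, the sodium-potassium-chloride cotransporter of the basolateral membrane, had 17590.4 and 12177 in duct basal cells, against 4473 and 5105 in epidermis (1.61), and Slc4a4, a sodium bicarbonate cotransporter, had 113 and 46.3 in duct basal cells, against 5.3 and 4.9 in epidermis (2.32). Sgk1, the kinase that carries the mineralocorticoid signal to the sodium channel, was higher (2.38), as was Nedd4l, the ubiquitin ligase that removes the channel (1.58). Carbonic anhydrases thus stood on both sides of the comparison. With single arrays left out, adjusted p was 0.0677 to 0.0682 without duct basal array 1 or epidermis array 1 for Car12, 0.0932 to 0.154 without duct basal array 1, epidermis array 1 or epidermis array 2 for Slc4a4, and 0.0837 to 0.187 without duct basal array 1, epidermis array 1 or epidermis array 2 for Nedd4l, which also failed after quantile normalization (0.178).

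The subunits of the epithelial sodium channel itself were dim in both populations. Scnn1a had 69 and 61.9 in duct basal cells, against 88.8 and 68 in epidermis (-0.21, not passing), Scnn1b had 68.7 and 74.7 in duct basal cells, against 23.5 and 42.1 in epidermis (0.93, passing, but not without duct basal array 1, duct basal array 2 or epidermis array 1 and not after quantile normalization, where its adjusted p was 0.374), and Scnn1g had 121 and 89.7 in duct basal cells, against 29.5 and 68.7 in epidermis (1.0, not passing). The chloride channel gene Cftr, at 11.9 and 18.7 in duct basal cells, against 10 and 4.1 in epidermis, was below the filter. The second gene of this list that was lower was Aqp3, the glycerol and water channel of epidermis, with 4200 and 6953 in duct basal cells, against 12682 and 17656 in epidermis (-1.47). The count of 15 higher genes depended on single arrays: it was 8 without duct basal array 1, 7 without epidermis array 1, 9 without epidermis array 2 and 9 with arrays centred on their median. Aqp3 had an adjusted p of 0.0642 to 0.168 without duct basal array 1, epidermis array 1 or epidermis array 2.

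**Figure D2:**
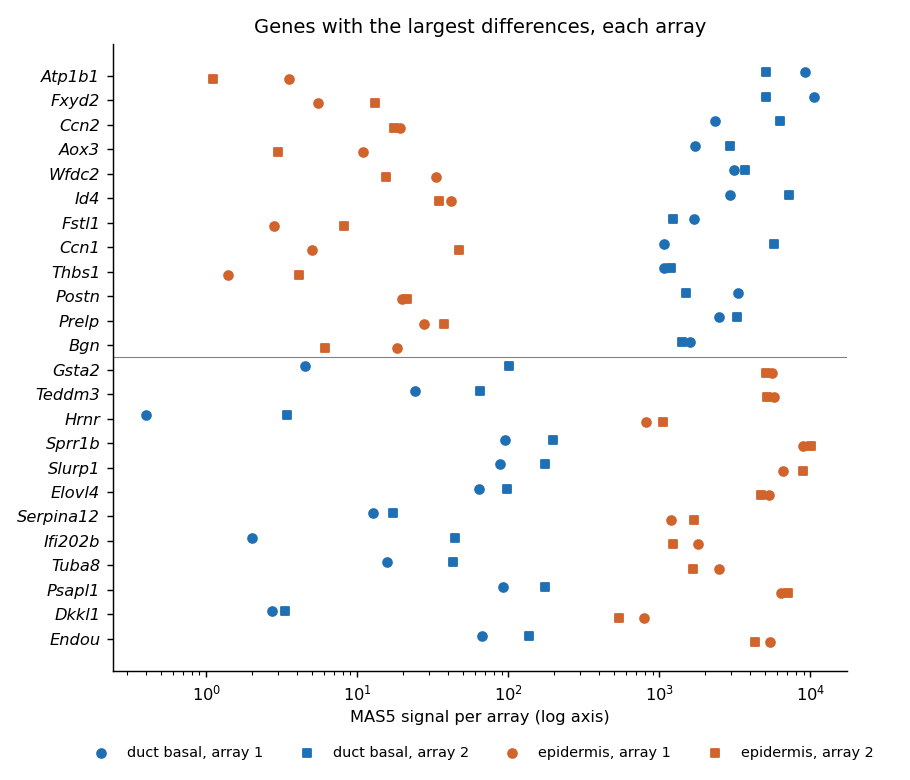
MAS5 signal on each array (x axis, log scale) of the 12 genes with the largest log2 difference in each direction, above the line those higher in duct basal cells and below it those lower. Blue symbols are duct basal arrays and orange symbols epidermis arrays, with circles for array 1 and squares for array 2; in every gene shown the 2 duct basal symbols lie on one side of the 2 epidermis symbols.

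Keratins and junction proteins of simple epithelium were found in the duct basal sample. Krt8 had 1836 and 905 in duct basal cells, against 17.8 and 3.5 in epidermis (5.92, adjusted p = 6.04e-05), its partner Krt18 had 2195 and 1027 in duct basal cells, against 18.3 and 14.9 in epidermis (5.73), and Krt19, a keratin of ducts, had 995 and 964 in duct basal cells, against 4.1 and 14.1 in epidermis (5.60). All 3 were low on both epidermis arrays, and Krt8 and Krt18 were about as unequal between the duct basal arrays as the other markers of gland luminal cells given further on. Of 23 tested genes of simple epithelium, 11 were higher, 3 were lower and 9 did not pass (median 1.07). Calls made up 60.9%, against 34.0% of all genes. The 3 that were lower became 1 without duct basal array 1, 0 without epidermis array 1 and 5 with arrays centred on their median. Sox9, a transcription factor of glandular and hair follicle epithelium, had 1208 and 2272 in duct basal cells, against 44.1 and 22.7 in epidermis (5.24). Epcam, an adhesion molecule of simple epithelium and of Langerhans cells, had 2511 and 3378 in duct basal cells, against 188 and 289.6 in epidermis (3.57).

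Tight junction genes changed in both directions. Cldn8, a claudin of tight ducts of the kidney, had 2386 and 1515 in duct basal cells, against 103 and 95.8 in epidermis (4.11); Cldn3 (4.07) and Cldn7 (2.87) were higher as well. Cldn4 was lower, with 93.9 and 125 in duct basal cells, against 544 and 491 in epidermis (-2.14). Cldn1, the claudin needed for the epidermal water barrier in mice, was also lower, with 153 and 74.2 in duct basal cells, against 1162 and 1019 in epidermis (-3.21). Cldn3, Cldn7 and Cldn8 were thus higher and Cldn1 and Cldn4 lower. The calls of 2 depended on single arrays, with an adjusted p of 0.0574 to 0.0604 without duct basal array 1 or epidermis array 1 for Cldn4 and of 0.058 to 0.0827 without any single one of the 4 arrays for Cldn7.

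Wfdc2, a secreted protein with the fold of whey acidic proteins, had 3135 and 3711 in duct basal cells, against 33.1 and 15.5 in epidermis (6.60, SE 0.49, adjusted p = 4.93e-05). Its relative Wfdc12 ran the opposite way, with 118 and 139.5 in duct basal cells, against 2844 and 3849.6 in epidermis (-4.57). Among 20 tested genes of secretion and host defence, 8 were higher, 3 were lower and 9 did not pass (median 1.61). Calls made up 55%, against 34.0% of all genes. Ceacam1, an adhesion molecule of epithelia, had 1702 and 666 in duct basal cells, against 2.2 and 19.2 in epidermis (5.68). Pglyrp1, a protein that binds bacterial cell walls, had 637 and 268 in duct basal cells, against 28.7 and 3.8 in epidermis (4.07), with an adjusted p of 0.0501 without duct basal array 1. Slpi, a protease inhibitor, was higher (3.48), as was Lyz1, a lysozyme (3.93). The genes that were lower beside Wfdc12 were Clu, a secreted chaperone (-2.62), and Defb1, a beta defensin (-2.36). The count of 8 was 5 without duct basal array 1.

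The hemidesmosome and its ligand laminin 332 were higher in duct basal cells. Of 16 tested genes of basal keratinocytes 12 were higher, 0 were lower and 4 did not pass, with a median log2 difference of 2.00. Itgb4, the integrin beta chain of the hemidesmosome, had 1184 and 1561 in duct basal cells, against 89.9 and 81.9 in epidermis (3.81, SE 0.24, adjusted p = 2.55e-05), and Itga6, its alpha chain, had 6143 and 4619 in duct basal cells, against 615 and 935 in epidermis (2.79). Col17a1, the collagen that spans the membrane there, had 10180.2 and 15313 in duct basal cells, against 778 and 1566 in epidermis (3.48). Lamb3, a chain of laminin 332, had 2060.3 and 2894 in duct basal cells, against 123 and 115 in epidermis (4.23). In each of these genes both duct basal arrays lay far above both epidermis arrays. Col17a1 had an adjusted p of 0.0538 without epidermis array 1.

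Plec and Dst, which encode the plakins that tie hemidesmosomes to keratin, were also higher (1.95 and 2.54), as was Col7a1, the collagen of anchoring fibrils (1.89). The 4 that did not pass were Krt14, Krt15 (0.58), Bcam (1.16) and Trp63 (0.49). Krt15, a keratin of basal cells, had 409 and 496 in duct basal cells, against 216 and 407 in epidermis.

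Genes of the basement membrane and matrix were higher in 17 of 27 tested cases and lower in 0 (median 2.13). Ccn2 and Ccn1, matrix-associated targets of YAP and serum response factor, had 2338 and 6266 in duct basal cells, against 19.2 and 17.5 in epidermis, and 1067 and 5705 in duct basal cells, against 5 and 47.4 in epidermis (6.98 and 6.29). Both differed several-fold between the duct basal arrays, in the same direction as the early response genes given further on. Thbs1, thrombospondin 1, was more even, with 1072 and 1186 in duct basal cells, against 1.4 and 4.1 in epidermis (6.28). Postn, the matrix protein periostin, had 3292 and 1497 in duct basal cells, against 19.6 and 21.4 in epidermis (6.10). Among the 12 largest differences were also the proteoglycan genes Prelp, with 2485 and 3256 in duct basal cells, against 27.5 and 37.4 in epidermis (6.01), and Bgn, with 1583 and 1412 in duct basal cells, against 18.3 and 6.1 in epidermis (6.01). Of the basement membrane itself, Col4a1 had 291 and 228 in duct basal cells, against 3.2 and 1.4 in epidermis (4.24), Agrn, agrin, had 2194 and 1951 in duct basal cells, against 129 and 231 in epidermis (3.49), and Lama5, a laminin chain, had 309 and 424 in duct basal cells, against 91.4 and 91.6 in epidermis (1.85).

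Genes of the cell cycle stood apart from the epidermis almost throughout. Of 37 tested, 32 were higher in duct basal cells, 1 was lower and 4 did not pass, with a median log2 difference of 2.39. Top2a, the topoisomerase of dividing cells, had 2806 and 2456 in duct basal cells, against 259 and 287 in epidermis (3.21, SE 0.31, adjusted p = 0.000132). Cdk1, the kinase that starts mitosis, had 2515 and 2143 in duct basal cells, against 332 and 367 in epidermis (2.69), and Ccnb2, a mitotic cyclin, had 991 and 1010.3 in duct basal cells, against 105 and 173 in epidermis (2.78). The duct basal arrays were close to each other and several-fold above both epidermis arrays in these 3 genes. Mki67, the common marker of proliferating cells, had 2048 and 1615 in duct basal cells, against 306 and 290 in epidermis (2.56).

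Replication licensing genes were higher, such as Mcm4 with 2849 and 1197 in duct basal cells, against 196 and 224 in epidermis (3.07) and Cdt1 with 2088 and 2083 in duct basal cells, against 298 and 312 in epidermis (2.73). So were genes of the spindle checkpoint, such as Bub1 with 568 and 410.3 in duct basal cells, against 53.1 and 37.2 in epidermis (3.13) and Aurkb with 391 and 745 in duct basal cells, against 54.3 and 57.5 in epidermis (3.02). Ccnd2, a G1 cyclin, had 4851 and 3410.2 in duct basal cells, against 273 and 426 in epidermis (3.53). The 4 that did not pass were Ccne1 (1.32), Ccne2 (0.51), Ccnd1 (0.53) and Cdkn1b (0.63), which act at the entry into S phase or restrain it. When the model held only the 4 arrays compared, Ccne1, Ccnd1 and Cdkn1b passed as higher (adjusted p = 0.0102, 0.0355 and 0.0472). The only gene of the list that was lower was Cdkn1a, the inhibitor p21, with 1273 and 1674 in duct basal cells, against 10550 and 8976 in epidermis (-2.73). In bulk samples, a smaller share of cycling cells and less of these transcripts per cell cannot be told apart.

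Promoters of the genes that moved together are shown for 2 mitotic genes higher in duct basal cells and 2 envelope genes lower in them, because the 2 groups held the motifs at different shares. Each is RefSeq sequence of build GRCm38.p6 from 250 bases before to 50 after the start of transcription, 5′ to 3′ on the gene's strand, and capitals mark matches on either strand. The motifs marked were the CCAAT box, known to be bound by the factor NF-Y, and the cell cycle homology region (CHR), spelled TTTGAA, which is bound by repressor and activator complexes of the cell cycle. The others marked were the AP-1 site, spelled TGANTCA, which Fos and Jun proteins bind, and the TATA box, spelled TATAAA, which helps to place the start of transcription. A further motif that was searched, the antioxidant response element (ARE), spelled TGACNNNGC, which the factor Nrf2 binds, had no match in these 4 promoters, and the other 4 motifs do not overlap one another in them. Both groups were chosen after the motif counts of other lists had been seen. The 4 regions are chr10:69352863-69353162 on the minus strand for Cdk1, chr9:70421505-70421804 on the minus strand for Ccnb2, chr3:92438730-92439029 on the minus strand for Sprr1b and chr3:92083093-92083392 on the minus strand for Lor.
Cdk1: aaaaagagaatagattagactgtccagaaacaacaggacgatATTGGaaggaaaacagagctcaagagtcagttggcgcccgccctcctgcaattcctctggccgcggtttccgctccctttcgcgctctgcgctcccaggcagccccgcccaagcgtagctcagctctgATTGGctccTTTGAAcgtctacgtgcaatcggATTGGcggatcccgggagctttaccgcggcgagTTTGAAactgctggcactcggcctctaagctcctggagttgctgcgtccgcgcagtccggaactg
Ccnb2: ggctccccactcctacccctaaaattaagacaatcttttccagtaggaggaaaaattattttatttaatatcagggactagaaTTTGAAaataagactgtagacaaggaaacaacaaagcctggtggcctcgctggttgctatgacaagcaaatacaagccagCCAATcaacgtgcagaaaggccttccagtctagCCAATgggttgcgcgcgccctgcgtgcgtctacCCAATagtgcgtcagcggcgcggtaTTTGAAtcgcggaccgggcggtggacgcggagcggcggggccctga
Sprr1b: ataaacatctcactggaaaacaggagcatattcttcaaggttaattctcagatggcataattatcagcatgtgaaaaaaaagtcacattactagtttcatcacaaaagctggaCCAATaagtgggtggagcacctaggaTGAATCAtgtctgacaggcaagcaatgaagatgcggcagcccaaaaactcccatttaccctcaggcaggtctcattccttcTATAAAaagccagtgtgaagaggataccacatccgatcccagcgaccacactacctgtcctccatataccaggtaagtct
Lor: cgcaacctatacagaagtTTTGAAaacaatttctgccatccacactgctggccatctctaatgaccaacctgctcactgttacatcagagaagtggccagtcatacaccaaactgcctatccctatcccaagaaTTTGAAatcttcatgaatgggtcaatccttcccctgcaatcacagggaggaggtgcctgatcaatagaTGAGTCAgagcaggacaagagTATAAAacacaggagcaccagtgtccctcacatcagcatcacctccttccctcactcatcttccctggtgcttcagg

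The Cdk1 promoter held CCAAT 3 times and the CHR sequence 2 times, one of them starting 15 bases before the start of transcription, and neither an AP-1 site nor a TATA box. The Ccnb2 promoter likewise held CCAAT 3 times and the CHR sequence 2 times. Of the 32 cell cycle genes that were higher, 25 had a promoter in the table, 26 promoters in all, since a gene can have more than 1. CCAAT was found in 22 of the 26 (84.6%), against 37.4% of all 32851 promoters and 36.9% of those of the genes tested. The CHR sequence was found in 12 (46.2%), against 17.9% and 11.8%. TATAAA and the AP-1 site were found in 0 of the 26, and the ARE in 5 (19.2%), against 12.4% and 14%. CCAAT boxes and the CHR are known elements of mitotic promoters; a match here describes letters in a window and no binding.

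The cornified envelope genes ran the opposite way. Of 30 tested genes of the envelope and of terminal differentiation, 19 were lower in duct basal cells, 0 were higher and 11 did not pass, with a median log2 difference of -2.33. Tgm1, the transglutaminase that crosslinks the envelope, had 81 and 74.4 in duct basal cells, against 1098 and 1389 in epidermis (-3.80, SE 0.38, adjusted p = 0.000146). Lor, loricrin, the main envelope protein, had 81.7 and 119 in duct basal cells, against 1125 and 1009 in epidermis (-3.28). Hrnr, hornerin, a relative of filaggrin, had 0.4 and 3.4 in duct basal cells, against 815 and 1061 in epidermis (-6.09). Duct basal signals were near the floor for Hrnr and near or below the median probe set of their arrays for Tgm1 and Lor.

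The small proline-rich proteins of the envelope differed among themselves. Sprr1b had 94.8 and 197 in duct basal cells, against 8955 and 10158 in epidermis (-6.0) and Sprr2d had 2.3 and 8.7 in duct basal cells, against 833 and 637 in epidermis (-5.43), whereas Sprr1a had 677 and 551 in duct basal cells, against 621 and 464 in epidermis (0.18) and did not pass. Probe sets of such closely related genes may share targets. The suprabasal keratins Krt1 and Krt2 were lower (-2.25 and -4.78), but Krt1 was far from absent in the duct, at 4147 and 8452 in duct basal cells, against 28791 and 27706 in epidermis. For Krt2 the adjusted p was 0.0545 to 0.0657 without duct basal array 1 or epidermis array 1. Krtdap, a secreted keratinocyte peptide, had 15983 and 24544 in duct basal cells, against 35491 and 32834 in epidermis, and the envelope scaffold genes Ppl and Evpl had 593 and 672 in duct basal cells, against 576 and 718 in epidermis, and 320.2 and 637 in duct basal cells, against 1031 and 1099.7 in epidermis; none of the 3 passed. Other members that were lower were Casp14, the caspase that breaks down filaggrin (-2.89), Cst6, a protease inhibitor of the envelope pathway (-4.68), and Calm4, a calmodulin-like protein of skin (-3.61). The adjusted p of Calm4 was 0.0695 to 0.107 without duct basal array 1, epidermis array 1 or epidermis array 2, and 0.0651 at a pseudocount of 1.

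In the Sprr1b promoter the AP-1 sequence started 111 bases and the TATA box 30 bases before the start of transcription. The Lor promoter held an AP-1 sequence starting 48 bases and a TATA box 27 bases before it. It also held the CHR sequence 2 times, as often as Cdk1 and Ccnb2, and the Sprr1b promoter also held CCAAT 1 time. Of the 19 envelope and differentiation genes that were lower, 16 had a promoter in the table, 20 promoters in all. The AP-1 sequence was found in 9 of the 20 (45%), against 7.81% of all promoters and 5.45% of those of the genes tested, and TATAAA in 8 (40%), against 13.6% and 7.64%. CCAAT was found in 10 (50%), the CHR sequence in 2 (10%) and the ARE in 1 (5%). Many of these genes lie together in the epidermal differentiation complex and share ancestry, so their promoters are not independent. Fos, whose product binds AP-1 sites with that of Jun, was itself higher in duct basal cells, with values given further on.

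**Figure D3:**
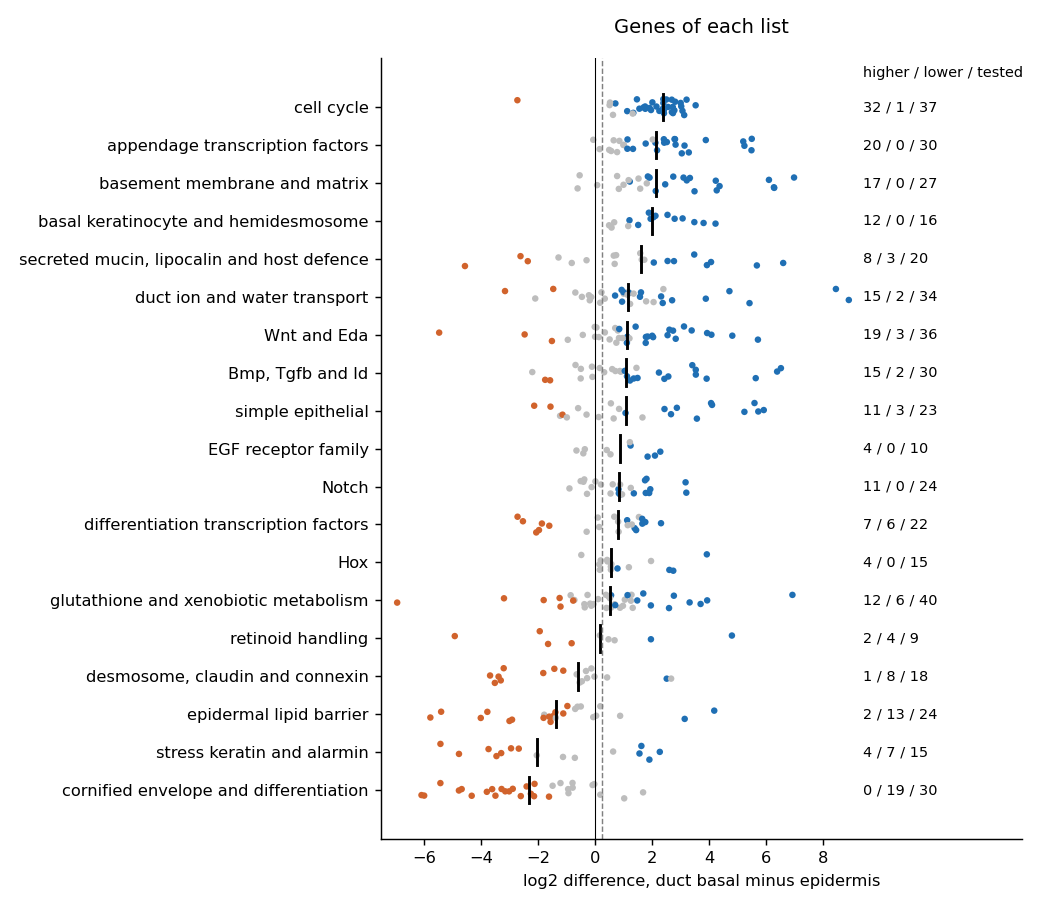
Log2 difference (duct basal minus epidermis, x axis) of each tested gene, by list (y axis, ordered by median). Blue points were called higher in duct basal cells, orange lower and grey neither, black bars are list medians, the dashed line is the median of all 9320 genes at 0.24, and the figures at the right count the higher, lower and tested genes, from 32, 1 and 37 for the cell cycle to 0, 19 and 30 for the cornified envelope.

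Lipid barrier genes were mostly lower as well. Of 24 tested, 13 were lower in duct basal cells, 2 were higher and 9 did not pass (median -1.39). Elovl4, the elongase of the ultra-long fatty acids of skin ceramides, had 63.8 and 97.7 in duct basal cells, against 5330.2 and 4686 in epidermis (-5.78). Acer1, a ceramidase of the epidermis, had 53.4 and 109.6 in duct basal cells, against 3376 and 4186 in epidermis (-5.40), Cers4, a ceramide synthase, had 96.7 and 115 in duct basal cells, against 1673 and 2123 in epidermis (-4.01), and Alox12b, the lipoxygenase that prepares ceramides for the envelope, had 6.2 and 3.5 in duct basal cells, against 204 and 234 in epidermis (-3.78). Epidermis was far brighter in all 4. Cholesterol synthesis genes were also lower, among them Fdps with 701 and 1179 in duct basal cells, against 8022 and 6786 in epidermis (-3.0) and Hmgcs1 with 3853 and 3107 in duct basal cells, against 10044 and 8244 in epidermis (-1.39, with an adjusted p of 0.0604 to 0.0775 without duct basal array 2 or epidermis array 1). The 2 that were higher were the desaturases of polyunsaturated fatty acids, Fads1 with 671 and 814 in duct basal cells, against 29.7 and 29 in epidermis (4.18) and Fads2 with 345 and 840 in duct basal cells, against 54.7 and 46.2 in epidermis (3.15).

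Keratins and alarmins of stressed skin divided. Of 15 tested genes, 7 were lower, 4 were higher and 4 did not pass (median -2.05). Krt6b, a keratin of palmoplantar and wounded skin, had 121 and 71.8 in duct basal cells, against 3863 and 5315 in epidermis (-5.43), and Krt16, a partner of the Krt6 keratins, had 303 and 759.8 in duct basal cells, against 3086 and 4656 in epidermis (-2.95). Krt6a, whose sequence is close to that of Krt6b, had 5351 and 8285 in duct basal cells, against 13600 and 15528 in epidermis (-1.12) and did not pass. Stfa3, a cysteine protease inhibitor, had 80 and 299.8 in duct basal cells, against 5303 and 4037 in epidermis (-4.78), and S100a8, a subunit of calprotectin, had 36.5 and 31.5 in duct basal cells, against 589 and 613 in epidermis (-3.74). Krt17 was higher, with 3804 and 4798 in duct basal cells, against 1096 and 1728 in epidermis (1.63), with an adjusted p of 0.0568 to 0.0832 without duct basal array 2 or epidermis array 1. The count of 4 higher genes was 2 without any single one of the 4 arrays, and 2 at a pseudocount of 1 or with the stricter filter.

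Among 18 tested genes of desmosomes, epidermal tight junctions and connexins, 8 were lower in duct basal cells, 1 was higher and 9 did not pass (median -0.59). Gjb2, Gjb6 and Gjb5, the connexins of differentiating epidermis, moved together. Gjb2, which is mutated in human palmoplantar keratoderma with deafness, had 166 and 158 in duct basal cells, against 1565 and 1867 in epidermis (-3.31), Gjb6 had 96 and 94.1 in duct basal cells, against 899.5 and 1362 in epidermis (-3.39) and Gjb5 had 194 and 239.6 in duct basal cells, against 2661 and 2528 in epidermis (-3.52). Gja1, the connexin present throughout epidermis, had 15105 and 13672 in duct basal cells, against 21261 and 23777 in epidermis (-0.65) and did not pass, but was called lower as the mean of its probe sets (-1.20). Dsc1, the desmocollin of upper layers, was lower at 26.6 and 33.7 in duct basal cells, against 506 and 551 in epidermis (-3.68), and Dsg2, the desmoglein of simple and basal epithelium, was the gene that was higher, at 2881 and 1514 in duct basal cells, against 336 and 377 in epidermis (2.52). Dsp, the desmoplakin common to all desmosomes, had 21305 and 24518 in duct basal cells, against 23048 and 27128 in epidermis and did not pass (-0.13), but was likewise called lower as the mean of its probe sets (-0.93).

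Gsta2, a glutathione transferase, had the largest difference of all genes that were lower. Its signal was 4.5 and 101 in duct basal cells, against 5540.4 and 5059.9 in epidermis (log2 difference -6.95, SE 0.71, adjusted p = 0.000173). The duct basal arrays were both low but far apart from each other. Gsta1 and Gsta2 are near-identical, so the probe set may report either. Of 40 tested genes of glutathione and xenobiotic metabolism, 12 were higher, 6 were lower and 22 did not pass (median 0.54), and the 45% that were called compare with 34.0% of all genes. Aox3, an aldehyde oxidase, had 1720.1 and 2925 in duct basal cells, against 10.9 and 3 in epidermis (6.93). Cyp2f2, a cytochrome P450, had 297 and 420.4 in duct basal cells, against 6.4 and 19 in epidermis (3.94), and Nqo1, a quinone reductase, had 2209 and 2615 in duct basal cells, against 364 and 324 in epidermis (2.77). Cbr3 and Cbr2, carbonyl reductases, ran opposite ways: Cbr3 had 934 and 1663 in duct basal cells, against 11287 and 11761 in epidermis (-3.20) and Cbr2 had 1429.6 and 2827 in duct basal cells, against 177 and 206 in epidermis (3.32).

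Of the other genes among the 12 largest differences on the lower side, Slurp1 and Serpina12 are known from human palmoplantar skin. Slurp1, a secreted protein whose loss causes the palmoplantar keratoderma Mal de Meleda in humans, had 88.2 and 173 in duct basal cells, against 6596 and 8875 in epidermis (-5.81). Serpina12, a serine protease inhibitor also linked to human palmoplantar keratoderma, had 12.7 and 17.1 in duct basal cells, against 1195 and 1689 in epidermis (-5.74). Both were bright in epidermis and dim in duct basal cells, with no overlap. Endou, an endoribonuclease, had 67 and 138 in duct basal cells, against 5376 and 4273 in epidermis (-5.47). Teddm3 (-6.69), Psapl1, which encodes a relative of prosaposin (-5.60), Ifi202b, an interferon-inducible gene of a family with near-identical members (-5.74), and Tuba8, an alpha tubulin (-5.72), completed the group together with Dkkl1, which encodes a relative of the Dickkopf proteins (-5.47), and genes given above.

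Signalling genes of appendages were measured by pathway. Wnt signalling begins with secreted Wnt ligands and Frizzled receptors, is amplified by R-spondins, and is held back by secreted and intracellular inhibitors. Of 36 tested Wnt and Eda genes, 19 were higher in duct basal cells, 3 were lower and 14 did not pass (median 1.12). Among ligands and enhancers, Rspo1, an R-spondin, had 770.3 and 744 in duct basal cells, against 2 and 3.3 in epidermis (5.72), Wnt10a, a ligand whose mutations affect sweat glands and palmoplantar skin in humans, had 811 and 814 in duct basal cells, against 301 and 290.4 in epidermis (1.42), and Wnt4, another ligand, was lower at 485 and 333 in duct basal cells, against 2302 and 2267 in epidermis (-2.47). Rspo1 was thus at the bottom of the scale in epidermis, while the Wnt ligands went both ways. The call of Wnt10a was lost under quantile normalization (adjusted p = 0.111), and its adjusted p was 0.104 to 0.13 without any single one of the 4 arrays.

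Among receptors and effectors, Fzd7 had 1937 and 1866 in duct basal cells, against 119.8 and 84.5 in epidermis (4.08), Lgr5 and Lgr6, receptors for R-spondins, were higher (2.74 and 2.01), and Tcf7l1 and Tcf7l2, transcription factors of the pathway, were higher too (3.12 and 2.83). Inhibitors were higher alongside: Nkd2, an intracellular inhibitor, had 769 and 666 in duct basal cells, against 13.9 and 13.7 in epidermis (4.82), Sfrp1, a secreted Wnt binder, had 1492 and 1241 in duct basal cells, against 60.7 and 99.2 in epidermis (3.93), and Wif1, another, had 91.7 and 279.5 in duct basal cells, against 3.7 and 5.5 in epidermis (3.39). Axin2, a common transcriptional target of the pathway, had 214 and 169 in duct basal cells, against 104 and 80.9 in epidermis and did not pass (0.97). The call of Wif1 was lost under quantile normalization (adjusted p = 0.061), and its adjusted p was 0.0662 to 0.179 without any single one of the 4 arrays.

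Eda, the ectodysplasin ligand needed for sweat glands to form, had 93.2 and 100.1 in duct basal cells, against 20.9 and 18.2 in epidermis (1.78), and Edar, its receptor, had 152 and 75.4 in duct basal cells, against 16.1 and 3 in epidermis (2.54). Edaradd, the adaptor of the receptor, was lower at 9 and 21.3 in duct basal cells, against 61.1 and 66 in epidermis (-1.51). Ligand and receptor were thus dim but separate in the duct, and the adaptor ran the other way. None of the 3 calls was firm: the adjusted p was 0.085 to 0.102 without any single one of the 4 arrays for Eda, 0.0969 to 0.102 without duct basal array 1 or epidermis array 2 for Edar and 0.112 to 0.16 without duct basal array 1, epidermis array 1 or epidermis array 2 for Edaradd. The count of 19 higher Wnt and Eda genes was 11 without duct basal array 1, 12 without epidermis array 1 and 11 without epidermis array 2.

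Of 30 tested genes of Bmp, Tgfb and activin signalling and their Id targets, 15 were higher, 2 were lower and 13 did not pass (median 1.08). Bmp2, a ligand, had 707 and 793 in duct basal cells, against 56.5 and 50.7 in epidermis (3.54), and Inhbb, a subunit of activin B, had 3518 and 4359.9 in duct basal cells, against 65.8 and 67.9 in epidermis (5.64). Sostdc1, an extracellular inhibitor of Bmp and Wnt, had 9927 and 8550.1 in duct basal cells, against 922 and 791 in epidermis (3.41), Fst, the activin inhibitor follistatin, had 412 and 498 in duct basal cells, against 36.9 and 20.9 in epidermis (3.54), and Fstl1, a follistatin-like protein, had 1692 and 1222 in duct basal cells, against 2.8 and 8.2 in epidermis (6.39). Ligands and inhibitors were thus high in the same sample.

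The Id genes, which encode inhibitors of basic helix-loop-helix factors and respond to Bmp, did not move together. Id4 had 2924 and 7209.8 in duct basal cells, against 41.9 and 34.5 in epidermis (6.52), whereas Id1 was lower at 712 and 1672 in duct basal cells, against 3807 and 3602 in epidermis (-1.75). Id3 had 536 and 1238 in duct basal cells, against 3691 and 3904 in epidermis (-2.20) and Id2 had 2848 and 1779 in duct basal cells, against 3835 and 3435 in epidermis (-0.69); neither passed. Id1, Id3 and Id4 were each brighter on duct basal array 2 than on array 1. For Id1 the adjusted p was 0.104 to 0.19 without duct basal array 1, epidermis array 1 or epidermis array 2. Id3 passed when either duct suprabasal array was left out of the model (adjusted p = 0.0225 and 0.0229) and with the replicate number as a block (0.0198).

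Of 24 tested Notch genes, 11 were higher, 0 were lower and 13 did not pass (median 0.86), so that 45.8% were called, against 34.0% of all genes. The ligand gene Jag2 had 758 and 960.3 in duct basal cells, against 61.7 and 112 in epidermis (3.18), and Jag1 (1.81) and Dll1 (1.94), 2 more ligands, were higher. Among receptors, Notch1 was higher with 2114 and 2488 in duct basal cells, against 1298 and 1181 in epidermis (0.88), and Notch2 (-0.50) and Notch3 (-0.28) did not pass. Hes1, a target that is also an early response gene in some cells, had 1869 and 8012 in duct basal cells, against 423 and 397 in epidermis (3.20) and was far brighter on duct basal array 2. The adjusted p of Notch1 was 0.0774 to 0.147 without any single one of the 4 arrays, and 0.173 with arrays centred on their median. The count of 11 was 7 after quantile normalization and 6 with arrays centred on their median, with 1 and 2 genes lower there, and between 5 and 7 without any single one of the 4 arrays.

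Transcription factors of skin appendages were higher in 20 of 30 tested cases and lower in 0 (median 2.15). Foxc1, needed in mice to keep sweat ducts open, had 673 and 1167 in duct basal cells, against 18.3 and 1.2 in epidermis (5.49), Runx1, a factor of hair follicle and glandular epithelium, had 919.9 and 545 in duct basal cells, against 2.4 and 5.6 in epidermis (5.50), and Tfcp2l1, a factor of kidney and salivary ducts, had 1618 and 829.7 in duct basal cells, against 4.8 and 48.4 in epidermis (5.20). All were near the floor in epidermis. En1, which specifies ventral paw skin and sets the number of sweat glands in mice, was measured in both, with 806 and 845 in duct basal cells, against 128 and 164 in epidermis (2.42). Lmo1, a transcriptional cofactor, had 2999.8 and 4564 in duct basal cells, against 369 and 454 in epidermis (3.14), and Sox10, a factor of myoepithelium and neural crest, had 179.6 and 104 in duct basal cells, against 2.7 and 3.8 in epidermis (3.29).

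Among 22 tested transcription factors of epidermal differentiation, 7 were higher, 6 were lower and 9 did not pass (median 0.82). Calls made up 59.1%, against 34.0% of all genes. Those that were lower included Grhl1, a factor of desmosomal genes, with 146 and 269.6 in duct basal cells, against 1230.4 and 1181 in epidermis (-2.53), Gata3, which controls epidermal lipid genes in mice, with 14.2 and 20.8 in duct basal cells, against 187 and 176 in epidermis (-2.72), and Ovol1, a repressor of proliferation, with 232 and 280.2 in duct basal cells, against 1195 and 1021 in epidermis (-2.06). Vdr, the vitamin D receptor, was higher at 1211 and 992 in duct basal cells, against 199.8 and 222 in epidermis (2.31), and so was Hopx, a homeodomain protein of stem cells and upper epidermis, at 4666 and 5943 in duct basal cells, against 1588 and 1498 in epidermis (1.76). The call of Gata3 was lost at a pseudocount of 1 (adjusted p = 0.0626). Klf4, a factor of barrier formation, had 3828 and 6826 in duct basal cells, against 4098 and 5580.1 in epidermis and did not pass (0.10).

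Genes of other cells differed beside these results, and their part in the results was not tested. Of 8 tested fibroblast markers 5 were higher in duct basal cells, 0 were lower and 3 did not pass (median 3.03); their summed signal was 24509 and 20709 in duct basal cells, against 1185 and 1498 in epidermis, most of it from Dcn, decorin. Dcn had 22039 and 18361 in duct basal cells, against 975 and 1254 in epidermis (4.17), and the collagen genes Col1a1 and Col3a1, which define fibroblasts, had 413 and 514 in duct basal cells, against 0.8 and 20.4 in epidermis, and 712 and 753 in duct basal cells, against 25 and 19.1 in epidermis (4.54 and 4.46). These values stand beside those of the matrix genes, Postn, Bgn and Prelp included. Those 3 genes were brightest in myoepithelial cells, with Postn at 19850 and 28037, Bgn at 8310 and 10584 and Prelp at 4322 and 6744. In myoepithelial cells Dcn had 11955 and 15303, Col1a1 had 45.4 and 39.2, and Col3a1 had 587.1 and 687.5. The largest fibroblast sum was on suprabasal duct array 2 (88073.6, against 16484.3 on array 1). On suprabasal duct arrays 1 and 2, Bgn had 838.3 and 9006.4, Postn 447.3 and 1317.4, and Prelp 565.1 and 1496.7. The source of these transcripts was not tested. The count of 5 was 8 when either or both duct suprabasal arrays were left out of the model or only the 4 arrays were kept, and 3 without duct basal array 1 or epidermis array 2.

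Myoepithelial markers passed as higher in 6 of 9 tested cases, with sums over 11 genes of 3704 and 1833 in duct basal cells, against 303 and 530 in epidermis. Acta2, smooth muscle actin, had 2594 and 1212 in duct basal cells, against 169 and 254 in epidermis (3.02), and Myh11, the myosin of smooth muscle, had 132 and 49.7 in duct basal cells, against 8 and 13.1 in epidermis (2.07, with an adjusted p of 0.0588 to 0.0639 without duct basal array 1 or epidermis array 1). Markers of gland luminal cells passed as higher in 3 of 9 (Krt8, Krt18 and Slc12a2), and in 5 when either myoepithelial array was left out of the model. The share, 33.3%, compares with 34.0% of all genes called in either direction and 23.0% called higher. Luminal marker sums were 23728 and 15755 in duct basal cells, against 5248 and 6188 in epidermis. On duct basal array 1, 9 of 9 luminal and 9 of 11 myoepithelial markers were brighter than on array 2, with median log2 ratios of 1.01 and 1.0 over the tested ones, against 0.08 over all genes tested. These values stand beside Atp1b1, Fxyd2, Krt8, Krt18 and Kcnn4, each of which was also brighter on duct basal array 1 and brighter still in suprabasal duct or gland cells. The same held for Ceacam1, Pglyrp1 and Tfcp2l1. Krt19 (995 and 964) and Atp6v1b1 (691 and 614) were nearly equal on the duct basal arrays. Other genes that were brighter in suprabasal duct or gland cells ran the other way. Among these, Wfdc2, Sox9, Epcam and Cyp2f2 were brighter on duct basal array 2.

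Schwann cell markers were higher in 3 of 4 tested cases (sums 2089 and 1223 in duct basal cells, against 108 and 128 in epidermis), with S100b at 1329 and 631 in duct basal cells, against 26 and 37.6 in epidermis. Melanocyte markers were higher in 4 of 5 (sums 753 and 519.8 in duct basal cells, against 158 and 164 in epidermis), although Tyr, tyrosinase, had 37.9 and 34.2 in duct basal cells, against 30.1 and 24.5 in epidermis and was below the filter, and the count was 0 without duct basal array 1 or epidermis array 1 and 1 without epidermis array 2. Pericyte markers were higher in 3 of 4 (sums 1548 and 1438 in duct basal cells, against 721 and 630.4 in epidermis), and in 1 without any single one of the 4 arrays. Fabp4, an adipocyte and endothelial gene, was the 1 of 2 adipocyte markers that was higher, at 1559.5 and 455 in duct basal cells, against 12.4 and 4 in epidermis. Endothelial markers passed in 1 of 8 (sums 773 and 454 in duct basal cells, against 120.3 and 148 in epidermis), and in 6 of 8 when either duct suprabasal array was left out of the model. The endothelial share, 12.5%, was below the 34.0% of all genes called. Epidermis was the lower sample in each of these sums. Schwann cell sums were higher still in luminal (14486 and 13937), suprabasal duct (7318 and 3153) and myoepithelial cells (6995 and 4964). Melanocyte sums were highest in luminal cells (3303 and 3288). Which cells these transcripts came from was not tested.

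Leukocyte genes were few, with 14.3% of the tested myeloid markers called, against 34.0% of all genes. Of 7 tested myeloid markers 1 was higher, Lyz2, whose probe set may also report Lyz1, and the pan-leukocyte gene Ptprc had 23.6 and 16.7 in duct basal cells, against 18.8 and 16.9 in epidermis. Cd207, which defines Langerhans cells, had 3 and 2.2 in duct basal cells, against 2.9 and 3.4 in epidermis and was below the filter, and of 7 tested Langerhans markers Epcam and Ctss passed as higher. No T cell marker passed of 2 tested, and Cd3d had 5.5 and 4.9 in duct basal cells, against 2.7 and 2.8 in epidermis. None of 5 Merkel cell markers was bright enough to test, and neither was the globin gene Hba-a1, at 1.2 and 2.1 in duct basal cells, against 2.1 and 8.7 in epidermis. Of 2 tested skeletal muscle markers Mylpf was lower in duct basal cells, at 29.6 and 48.8 in duct basal cells, against 210.4 and 189 in epidermis, with an adjusted p of 0.054 to 0.0571 without duct basal array 1 or epidermis array 1. Lyz2 and Ctss did not hold either, with an adjusted p of 0.0871 to 0.211 without duct basal array 1, duct basal array 2 or epidermis array 2 for Lyz2 and of 0.07 to 0.195 without any single one of the 4 arrays for Ctss. Of 4 tested hair follicle and sebaceous markers 3 were higher, Krt79, Lgr5 and Cd34, with Krt79 at 3095 and 12282 in duct basal cells, against 1853 and 784 in epidermis, and the count was 1 without duct basal array 2, epidermis array 1 or epidermis array 2.

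Early response genes, which rise within minutes when tissue is dissociated, were higher in duct basal cells as well. Of 14 tested 13 were higher, 0 were lower and 1 did not pass (median 3.37), and their summed signal was 93368 and 162751 in duct basal cells, against 22687 and 31529 in epidermis. The sums were also high in suprabasal duct (82026 and 75893), myoepithelial (112812 and 112143) and luminal cells (133777 and 119011). The high level was thus not particular to duct basal cells. Fos had 20208 and 28158 in duct basal cells, against 785 and 1178 in epidermis (4.62), Egr1 had 7289.7 and 17595 in duct basal cells, against 529 and 865 in epidermis (4.04), and Atf3 had 3114 and 7993 in duct basal cells, against 238 and 309 in epidermis (4.14). The duct basal arrays were several-fold above epidermis and unequal, since 12 of the 14 were brighter on array 2 (the median of their log2 ratios, array 1 over array 2, was -0.97). Ccn1, Ccn2, Hes1 and Id4, given above, also had their higher duct basal value on array 2. The part of this response in the results was not tested.

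**Figure D4:**
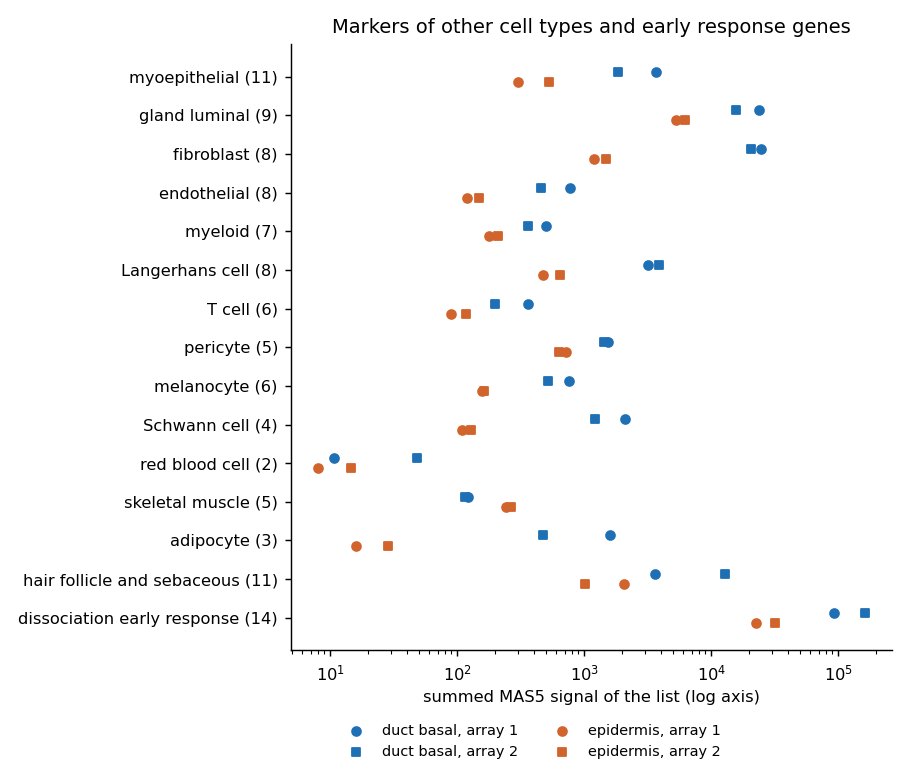
Summed MAS5 signal (x axis, log scale) of marker lists of other cell types and of early response genes (y axis, with the number of genes on the array). Blue symbols are duct basal arrays and orange symbols epidermis arrays, circles for array 1 and squares for array 2; the early response sums were 93368 and 162751 in duct basal cells, against 22687 and 31529 in epidermis.

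Signals of the other 3 populations are set here beside the differences between duct basal cells and epidermis. Among the 12 largest differences on the higher side, both epidermis arrays lay below all 8 other arrays in 11 genes, and among the 12 on the lower side both lay above all 8 in 12. Of all 926 genes that were higher, at least 2-fold and brighter in duct basal cells than the median gene, epidermis was below the 8 other arrays in 624, and duct basal cells had the brightest mean of the 5 populations in 369. Of the 514 on the lower side, epidermis lay above the 8 others in 442. These counts are descriptions, since the genes were chosen by the comparison with epidermis. The same counts over all 9320 genes tested were not made. The epidermis arrays also had the lowest median signals (65.7 and 67.3, against 92.7 to 120.1 on the other 8). The counts were not repeated under another scaling.

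Atp1b1 averaged 7133 ± 2944 in duct basal cells and 2.3 ± 1.7 in epidermis (SD, n = 2 each), and 35401 and 21897 in suprabasal duct, 17181 and 2297 in myoepithelial and 28079 and 47608 in luminal cells in the other populations. Wfdc2 and Krt8 were likewise brighter in other populations than in duct basal cells. Rspo1, Lmo1, Rbp4, Inhbb, Bmp2 and Top2a were brightest in duct basal cells. Inhbb was also bright in suprabasal duct, at 3014 and 2588, against 3518 and 4359.9 in duct basal cells. Rspo1 had 149 and 195 in suprabasal duct, 3.6 and 13.6 in myoepithelial and 3.5 and 6.6 in luminal cells in the other populations, and Lmo1 had 216 and 929.6 in suprabasal duct, 66.1 and 111 in myoepithelial and 32.3 and 80.5 in luminal cells. Top2a had 286 and 258 in suprabasal duct, 79.3 and 36.3 in myoepithelial and 34.3 and 44 in luminal cells. Every one of these arrays lay below both duct basal arrays for all 3 genes. Col17a1 was bright in duct basal and myoepithelial cells, the 2 layers that touch the basement membrane, at 10180.2 and 15313 in duct basal and 6711 and 8839 in myoepithelial cells. Sprr1b, Gsta2 and Tgm1 were bright in epidermis and dim in each of the 4 sweat gland populations. Krt10 had 5549 and 3754 in suprabasal duct cells, between its values on the duct basal arrays given above.

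**Figure D5:**
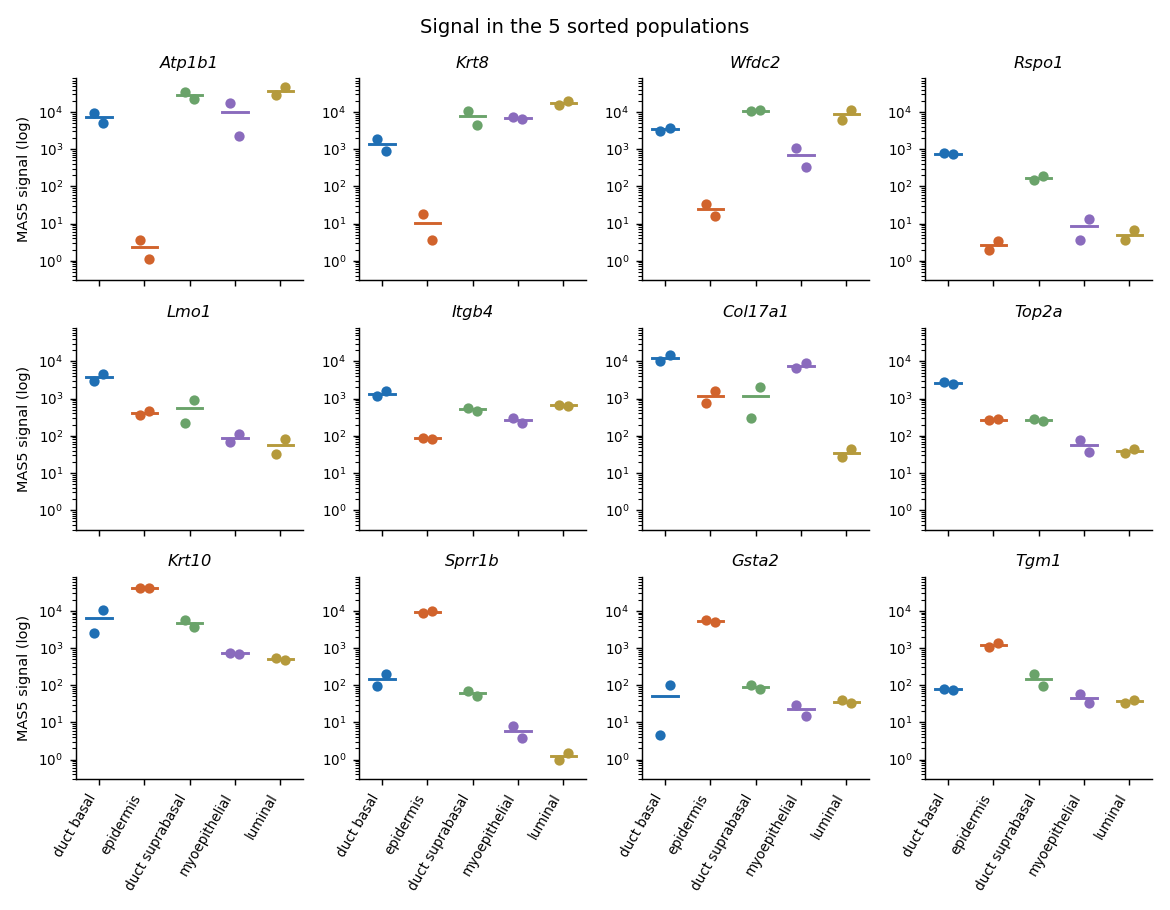
MAS5 signal (y axis, log scale) of 12 genes in the 5 sorted populations (x axis); each point is an array and each bar the mean of 2. Atp1b1, Krt8 and Wfdc2 were low in epidermis alone, Rspo1, Lmo1 and Top2a were brightest in duct basal cells, and Sprr1b, Gsta2 and Tgm1 were bright in epidermis alone.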

How the data were processed

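Total RNA was extracted with Trizol and converted to biotin-labelled cRNA by Affymetrix's procedure, per the labels' protocols. The values deposited by the authors are array intensity (signal) from MAS5, per the submitters' processing notes, which give no version. They are linear, with a trimmed mean of 500 on every array. Detection calls did not enter the analysis.

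The table held 22690 probe sets. After removal of 64 controls, the platform annotation gave 1 symbol for 20380, several for 691 and none for 1555, which were not named. A RefSeq table of GRCm38.p6 held 20351 of the single-symbol probe sets by Entrez identifier; it changed 0 symbols and supplied chromosomes and promoters. For each of 12393 genes the probe set brightest on average over the 10 arrays was kept. Signals were converted to log2 after adding 12, about their 20th percentile (12.2), with no further normalization. The 9320 genes above the 40th percentile of an array on at least 2 of 10 arrays entered a limma model (version 3.58.1, R 4.3.3) of all 10 arrays with a mean-variance trend; p-values were adjusted by Benjamini and Hochberg over all of them, with a threshold of 0.05. SE is the standard error of a log2 difference. The procedure was tested on simulated data. P-values measure only the spread between arrays, assumed equal across the 5 populations; the labels do not say whether arrays came from separate animals.

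The comparison, its members and the 35 gene lists were chosen with earlier results of these data known. Genes were named by a rule: the 4 markers given for the comparison, the 12 largest differences per direction and up to 4 genes per list and direction, among genes that passed, differed at least 2-fold with separate arrays and were brighter than the median gene (120 genes). Further list members were named for their role after their values were seen. Of the 120 genes, 53 had other tested probe sets, in 4 with an opposite sign (Ceacam1, Acta2, Mbp and Fabp4) and in 0 past the threshold. Deviations of same-numbered duct basal and epidermis arrays had r = 0.05 over genes, which are not independent. No such value is given for the other populations, and the labels describe no pairing. Figures were drawn with matplotlib 3.10.9.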

Additional observations from a re-analysis of the deposited data

How the results depend on the processing

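The reported counts were 3168 calls, 2145 of them higher in duct basal cells and 1023 lower. Scaling moved the split of directions: quantile normalization gave 1373 higher and 1283 lower genes, and centring each array on its median gave 1336 higher and 1915 lower. A test against a 2-fold difference passed 709 genes, 561 higher and 148 lower. Leaving out 1 of the 10 arrays gave 1740 to 3746 calls, 1202 to 2532 higher and 466 to 1214 lower; the lowest totals came without epidermis array 1 (1740), duct basal array 1 (1765) and epidermis array 2 (1894), which leave 1 array whose spread is assumed to equal that of the other populations. The cause of these shifts was not tested, beyond the loss of an array. The other alternatives (pseudocounts of 1 and 47, no filter, a filter at the 60th percentile, the mean of a gene's probe sets, every probe set, the 4 arrays alone, without both duct suprabasal arrays, no variance trend, a robust prior) kept each of the 3 counts within 1.5 times of the main one. No gene changed direction between calls in these settings, except 5 genes when every probe set was tested by itself.

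With the replicate number as a replicate block, 3587 genes passed, 2414 higher and 1173 lower. The labels describe no pairing by number. An r of 0.05 between deviations of same-numbered duct basal and epidermis arrays cannot show that none exists. With 2 pairs no rank of arrays was made.

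Of 209 tested genes that the text gives or the naming rule chose, 183 passed and 39 lost the call without 1 of the 4 arrays; 0 reversed under any alternative. When the model held only the 4 arrays compared, 12 of these genes gained a call and 1 lost it. Krt14, Krt6a, Krtdap, Evpl, Gja1, Bcam, Ccne1, Ccnd1 and Cdkn1b were among those that gained it. With 2 arrays per population and no detection calls, signals near the bottom of the scale have no order, and a difference against them is a value on the log2(signal + 12) scale.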

Other observations

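Retinoid genes were found on both sides. Rbp4, the carrier of retinol, had 5365 and 7334 in duct basal cells, against 205 and 222 in epidermis (log2 difference 4.80), and its receptor Stra6 had 219 and 286 in duct basal cells, against 69.8 and 43.4 in epidermis (1.96). Rdh12, a retinol dehydrogenase, ran the other way with 109.9 and 71.3 in duct basal cells, against 3741 and 2477 in epidermis (-4.92), as did Crabp2, which carries retinoic acid to the nucleus, with 1404 and 1643 in duct basal cells, against 4588 and 4998 in epidermis (-1.65). Of 9 tested retinoid genes 2 were higher, 4 were lower and 3 did not pass; the median, 0.17, turned to -0.17 after quantile normalization and -0.24 with arrays centred on their median, and the 4 lower calls were 2 without any single one of the 4 arrays.

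Hox genes, which keep the position of a cell along the body, passed at a share near that of all genes: of 15 tested 4 were higher (26.7%, against 23.0% of all genes) and 11 did not pass (median 0.56). Those that were higher were Hoxd8, with 442 and 595 in duct basal cells, against 26.4 and 19.2 in epidermis (3.92), Hoxd9, with 116 and 236 in duct basal cells, against 21.5 and 9 in epidermis (2.75), Hoxc8, with 569 and 359.8 in duct basal cells, against 54.4 and 75.5 in epidermis (2.61), and Hoxc13, with 344 and 324 in duct basal cells, against 218 and 163 in epidermis (0.79). The adjusted p was 0.0544 to 0.108 without duct basal array 2, epidermis array 1 or epidermis array 2 for Hoxd9 and 0.0668 to 0.229 without any single one of the 4 arrays for Hoxc13, which also failed after quantile normalization (0.383), with arrays centred on their median (0.274) and with no filter on low values (0.0594). The count was 2 after quantile normalization, and 2 without duct basal array 2, epidermis array 1 or epidermis array 2. Hoxa9 had 1225 and 1086 in duct basal cells, against 767 and 939.9 in epidermis and did not pass (0.44).

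Of 10 tested genes of the EGF receptor family 4 were higher and 6 did not pass (median 0.88). The 40% called, all of them higher, compare with 34.0% of all genes called in either direction and 23.0% called higher. Lrig1, a brake on the receptor that marks stem cells, had 154 and 139 in duct basal cells, against 28.5 and 13.8 in epidermis (2.29), and the ligand gene Tgfa had 329 and 313 in duct basal cells, against 67 and 64 in epidermis (2.10). Hbegf, another ligand and an early response gene, had 139 and 442 in duct basal cells, against 60.8 and 61.1 in epidermis (1.84) and was brighter on duct basal array 2; its adjusted p was 0.107 to 0.163 without duct basal array 2, epidermis array 1 or epidermis array 2, 0.134 after quantile normalization and 0.0633 with arrays centred on their median. Egfr had 962 and 625 in duct basal cells, against 313 and 327 in epidermis (1.25), and its adjusted p was 0.0648 to 0.105 without duct basal array 1, epidermis array 1 or epidermis array 2. The count of 4 was 2 after quantile normalization, with arrays centred on their median, with the mean of probe sets, or without either epidermis array.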
